A study of Mus musculus with 36 samples.

Results

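RNA from the nucleus accumbens (NAc) of male mice given the HDAC1/2 inhibitor Cpd-60 was compared with RNA from the NAc of mice given vehicle. The comparison uses 6 of the 36 arrays of the series, chosen by the brain region and treatment in their labels, with 3 arrays in each group. Every array held RNA pooled from 2 mice of the strain C57BL/6J, so each group represents 3 pools of different animals as the titles name them. Cpd-60 was injected i.p. at 45 mg/kg once a day, 10 times in all, and tissue was taken 1 h after the last injection. Vehicle mice received the same number of injections of the DMSO, PEG-400 and saline mixture that carried the drug. The methods give an age of 11 weeks and name C57BL/6 mice of both Jackson and Taconic, while the labels name C57BL/6J, and which supplier each pool came from was not analysed here. RNA was labelled and hybridized to Illumina MouseWG-6 BeadChips, and the deposited values are the raw intensity and the detection p-value of 45281 probes. The pool named mice 3 and 4 under Cpd-60 is called mice 1 and 2 in its description. The title was used here, and if the description were right the drug group would hold 2 separate pools of animals. This pool is replicate 2 of Cpd-60, and results without it are given where a call depends on it. The other arrays of the series hold the prefrontal cortex (PFC) and hippocampus (HIP) of the same pools, and the inhibitors SAHA (25 mg/kg) and CI-994 (10 mg/kg) in the same regions.

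HDAC1 and HDAC2 are class I histone deacetylases that work as the catalytic subunits of the Sin3, NuRD and CoREST corepressor complexes, and removing acetyl groups from histone tails is generally linked to lower transcription. The NAc is the ventral part of the striatum. Most of its neurons are GABAergic medium spiny neurons that receive dopamine from the midbrain and express dopamine receptors, opioid peptides and the phosphoprotein Ppp1r1b (DARPP-32). Glucocorticoids act through a nuclear receptor that binds a palindromic DNA element and raises transcription of a well known set of genes in many tissues, brain included. Sgk1, a serum- and glucocorticoid-regulated kinase, and Tsc22d3, the glucocorticoid-induced leucine zipper, are classical members of that set.

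The RefSeq upstream sequences of Sgk1, Tsc22d3, Agxt2l1 and Sult1a1 are shown because the first 3 had the largest changes among the genes that the study names, and the study chose all 4 for measurements of histone acetylation in the NAc. Each run is the 250 bases before an annotated start site in GRCm38.p6, in the direction of the gene. Capitals mark the arm AGAACA of the glucocorticoid response element, read on both strands (TGTTCT on the other), and the whole element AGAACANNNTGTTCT, which consists of both arms around 3 free letters.
Sgk1: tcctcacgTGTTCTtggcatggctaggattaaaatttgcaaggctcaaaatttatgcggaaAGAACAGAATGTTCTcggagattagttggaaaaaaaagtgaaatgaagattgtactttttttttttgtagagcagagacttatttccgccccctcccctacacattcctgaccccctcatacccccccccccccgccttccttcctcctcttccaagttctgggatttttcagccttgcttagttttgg
Tsc22d3: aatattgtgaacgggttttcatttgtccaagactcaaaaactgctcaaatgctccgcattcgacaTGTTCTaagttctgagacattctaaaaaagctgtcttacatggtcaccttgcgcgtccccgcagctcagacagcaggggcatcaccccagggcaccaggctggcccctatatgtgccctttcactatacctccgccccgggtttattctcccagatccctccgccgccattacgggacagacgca
Agxt2l1: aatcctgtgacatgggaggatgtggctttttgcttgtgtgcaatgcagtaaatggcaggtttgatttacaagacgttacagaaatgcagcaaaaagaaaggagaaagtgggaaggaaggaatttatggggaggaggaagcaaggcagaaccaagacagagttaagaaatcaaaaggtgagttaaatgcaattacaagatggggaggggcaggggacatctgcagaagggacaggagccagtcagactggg
Sult1a1: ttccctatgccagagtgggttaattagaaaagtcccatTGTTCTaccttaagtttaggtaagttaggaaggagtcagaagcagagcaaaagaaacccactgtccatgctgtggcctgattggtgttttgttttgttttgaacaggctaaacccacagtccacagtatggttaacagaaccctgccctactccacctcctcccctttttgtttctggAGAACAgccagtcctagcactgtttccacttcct
For a gene with several windows, the one with the most copies of these letters is shown. Some other windows of Sgk1 and Tsc22d3 hold no arm. The shares over all windows given below are therefore no measure of how unusual a shown window is. The window of Sgk1 shown lies at chr10:21993640-21993889 on the plus strand and is 1 of 6 annotated for that gene. It holds the whole element, beginning 189 bases before the start site, and a further arm 242 bases before it. Of all 32851 RefSeq windows of this length 3 hold the whole element (0.00913%), and 5284 hold at least 1 arm (16.1%). The window of Tsc22d3 (chrX:140600523-140600772, minus strand, 1 of 3) holds 1 arm, beginning 185 bases before the start site, and that of Sult1a1 (chr7:126676419-126676668, minus strand) holds arms 212 and 34 bases before it. Neither of the windows of Agxt2l1, now named Etnppl, contains these letters (the first is shown, chr3:130617198-130617447, plus strand). Over the glucocorticoid-induced genes described below, 23 of the 25 members tested had RefSeq windows, and 4 of the 23 held an arm (17.4%), against 18.2% of all genes in the table. A match in letters is a description of the window and was not tested for binding.

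The 6 arrays differed in brightness and grouped by BeadChip rather than by treatment. The NAc arrays of each treatment lay on 2 BeadChips, with replicates 1 and 2 of both groups on the first and replicate 3 of both on the second. Over the tested probes, replicate 3 of vehicle and replicate 3 of Cpd-60 correlated with each other at 0.991, and with the other arrays of their own groups at 0.966 to 0.977. Replicates 1 and 2 correlated at 0.994 under vehicle and 0.989 under Cpd-60. Cpd-60 replicate 1 was the dimmest array, with a median raw intensity of 82.2 and 31.9% of probes detected at a detection p of at most 0.01. Cpd-60 replicate 3 was the brightest, at 104.7 and 43.3%. The vehicle arrays lay between these, at 94.4 to 104.4 and 34.7% to 41%. What sets replicate 3 apart was not tested, and its part in each result is given below as the difference within each BeadChip.

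The dissection was checked against marker genes in the vehicle arrays. Of 23 medium spiny neuron genes tested, 22 were higher in all 3 NAc vehicle arrays than in every PFC and HIP vehicle array. Drd1a, the D1 dopamine receptor, was 3.44 log2 units higher in the NAc than in the PFC, and Ppp1r1b was 3.85 higher. Of 9 cortical glutamatergic genes 5 were lower in all NAc arrays than in every array of both other regions, among them Slc17a7, the vesicular glutamate transporter of cortical neurons, at 7.64 to 8.27 log2 units in the NAc and 11.08 to 11.60 in the PFC. The arrays therefore carried the marker pattern of striatal tissue. In dissected tissue a change in the number of cells of a type and a change in RNA per cell cannot be told apart.

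After quantile normalization, 22142 probes were tested with limma's moderated linear model, and a change is given as Cpd-60 minus vehicle in log2 intensity. The fit held the NAc arrays of SAHA as well, so each SE and p draws on the spread of 9 arrays. No probe passed a Benjamini-Hochberg adjusted p under 0.05 (0 of 22142, 0%), and the smallest adjusted p was 0.9992. At an unadjusted p under 0.05 there were 888 probes (4.01%). A probe is said to be called higher or lower below when its unadjusted p was under 0.05 and its change at least 1.2-fold. By that rule 164 probes were higher under Cpd-60 (0.741%) and 207 lower (0.935%). With shares this small a short gene list is likely to hold 0 calls, so 0 calls in a list does not show that its genes did not respond. All 3 Cpd-60 pools lay above all 3 vehicle pools for 4.4% of tested probes and below them for 5.26%. With the BeadChip as a block, 259 probes were called higher (1.17%) and 300 lower (1.35%), again with none after adjustment. When the fit was blocked on pool number, 249 were called higher (1.12%). An exact permutation test of 3 pools against 3 cannot give a two-sided p under 0.1. The changes described below are therefore single-probe results that do not survive correction over the array, and the main ones are given with the value in every pool.

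Genes that glucocorticoids induce were among the largest rises. Tsc22d3 read 8.76, 8.90 and 8.96 log2 units in vehicle replicates 1 to 3 and 9.59, 9.99 and 9.60 under Cpd-60. All Cpd-60 pools lay above all vehicle pools, and the change of 0.86 (SE 0.17) is a 1.81-fold rise on the probe with the highest signal (ILMN_3150811). It was called when any 1 of the 6 pools was left out. The second probe of the gene changed by 0.77 (SE 0.35) and was not called. It differed by 1.17 between the pools of BeadChip 1 and by -0.03 between those of BeadChip 2, where the first probe differed by 0.64, so the probes disagree about replicate 3.

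Agxt2l1, which encodes the ethanolamine-phosphate phospho-lyase and is expressed mainly in astrocytes in brain, read 7.26, 7.25 and 7.22 under vehicle and 7.88, 8.05 and 8.27 under Cpd-60. The vehicle pools were close together, and each Cpd-60 pool was above them. The change was 0.83 (SE 0.17), a 1.78-fold rise (ILMN_1229990). The other probe of the gene rose by 0.69 (SE 0.15), and both were called with any 1 pool left out. This was a rise that did not rest on BeadChip 1, since the difference was 0.72 there and 1.06 on BeadChip 2.

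Sgk1, whose window shown above (1 of 6) holds the whole response element, read 9.90, 9.99 and 9.95 under vehicle and 11.09, 10.94 and 10.05 under Cpd-60 (ILMN_1213954). Its change of 0.75 (SE 0.24) is a 1.68-fold rise. Replicates 1 and 2 stood far above every vehicle pool, while replicate 3 lay just above them. The difference was 1.07 on BeadChip 1 and 0.10 on BeadChip 2. The gene was not called without Cpd-60 replicate 1 (0.55) or 2 (0.63), and its change was 1.07 without Cpd-60 replicate 3.

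Sult1a1, a sulfotransferase of phenolic compounds, showed the same division. It read 7.51, 7.50 and 7.36 under vehicle and 8.01, 8.12 and 7.50 under Cpd-60, so that the third Cpd-60 pool overlapped the vehicle range. The change of 0.42 (SE 0.15) was called and corresponds to 1.34-fold, but was not called without vehicle replicate 3 (0.37) or Cpd-60 replicates 1 (0.35) or 2 (0.30). Mfsd2, the lysophospholipid transporter of the blood-brain barrier now named Mfsd2a, read 8.25, 8.49 and 7.99 under vehicle and 8.95, 9.31 and 8.09 under Cpd-60. Its change of 0.54 (SE 0.27) was not called in these arrays and was called with the BeadChip as a block. Replicate 3 again lay within the vehicle range.

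**Figure D1:**
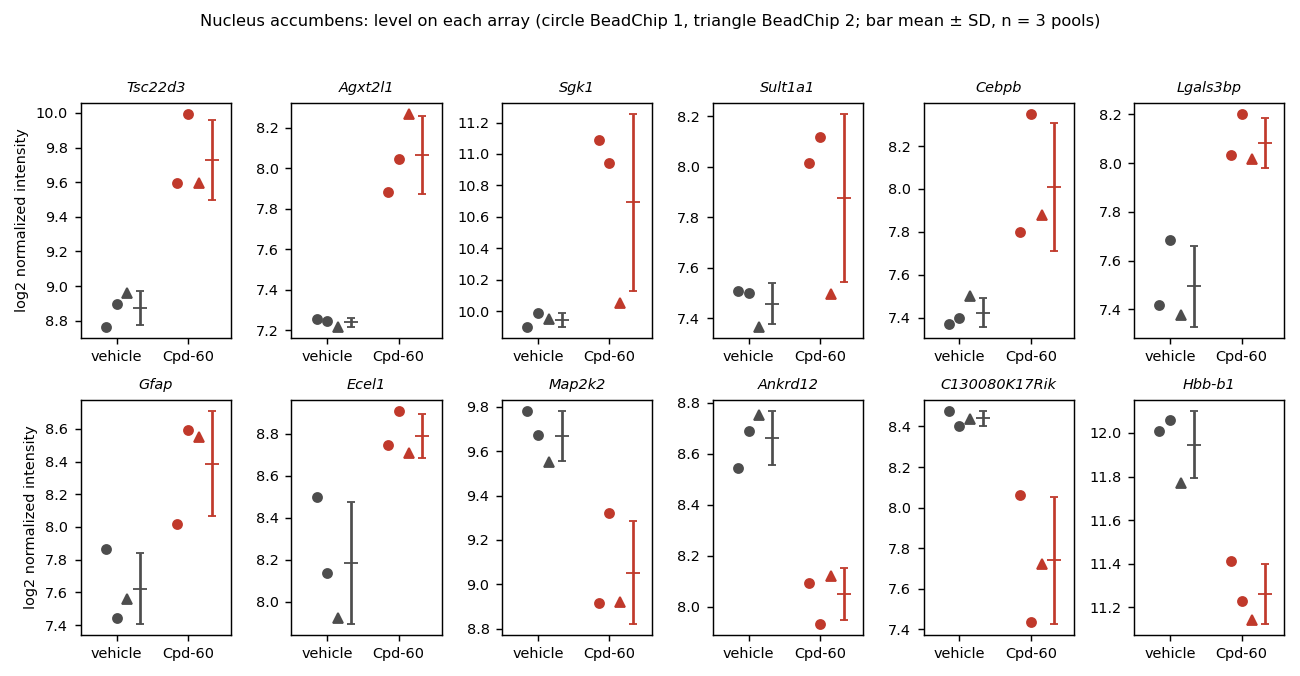
Normalized log2 intensity (vertical axes, one scale per panel) of 12 probes in vehicle (grey) and Cpd-60 (red) pools of the nucleus accumbens, with circles for BeadChip 1, triangles for BeadChip 2 and bars for mean ± SD of 3 pools. Agxt2l1 was up in all 3 Cpd-60 pools (7.88 to 8.27 against 7.22 to 7.26), while Sgk1 reached 11.09 and 10.94 in replicates 1 and 2 and 10.05 in replicate 3.

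Of 27 genes listed as induced by glucocorticoids 25 were tested, and 23 of them had a positive change, against 48.4% of all probes tested. Their summed intensity was 17145 to 17380 under vehicle and 19672 to 26069 under Cpd-60. This sum is of unlogged intensity and leans on bright members such as Mt1, at 12.9 to 13.0 log2 units under vehicle. The median change was 0.34 log2 units, where the median over all tested probes was -0.0041. Called higher were 6 of the 25, where 0.741% of all probes were, and none was called lower. All Cpd-60 pools lay above all vehicle pools for 8 of the 25, where 4.4% of all probes did so. The called members beside those above were Gjb6, the astrocyte gap junction protein connexin 30 (0.49, SE 0.19), and Mt1, a metallothionein (0.30, SE 0.13). With 1 pool left out they were called in 2 and in 1 of 6 fits, with changes of 0.37 to 0.65 and of 0.20 to 0.38. Gjb6 is also an astrocyte marker. The study named 5 of the members from these same arrays, so the list is not independent evidence of its direction. Among the other 20 members 18 had a positive change, 2 were called higher and the median change was 0.23. All members were chosen with earlier results of these data known, so these 20 are not independent evidence either.

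With the BeadChip as a block 13 of the 25 were called higher, where 1.17% of all probes were, and none lower. When the fit was blocked on pool number 10 were called higher, against 1.12% of all probes. The members added by the BeadChip block were Mfsd2, Cdkn1a, Nfkbia, Ddit4, Rhob, Mt2 and Fkbp5. Fkbp5, the chaperone that restrains the glucocorticoid receptor, read 7.27, 7.46 and 7.35 under vehicle and 7.78, 7.97 and 7.34 under Cpd-60, a change of 0.34 (SE 0.16) that was not called without the block. Nfkbia, the inhibitor of NF-kappaB, changed by 0.50 (SE 0.24) and Ddit4, an inhibitor of mTORC1 signalling, by 0.53 (SE 0.26). The block leaves each change as it is and alters its error.

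The list divided by BeadChip as Sgk1 did. Its median difference was 0.37 between the pools of BeadChip 1 and 0.08 between the single pools of BeadChip 2. In the arrays of BeadChip 1 alone, 17 of 25 were called higher, where 4.3% of all probes were, and 1 lower. Both Cpd-60 arrays there would hold the same animals if the description of replicate 2 were right. In the fit without Cpd-60 replicate 2, 2 members were called higher, beside 119 of all 22142 probes. Without Cpd-60 replicate 3 it was 14 members, beside 559 of all probes, so the count over the whole array moved as well. On BeadChip 2 Agxt2l1, Gjb6 and Tsc22d3 differed by 1.06, 0.79 and 0.64, and Lcn2 by 0.29. Every other member was between -0.07 and 0.21 there. Dusp1, Per1 and Klf9, which glucocorticoids also induce, changed by 0.11, 0.17 and 0.16 over all pools and none of them was called.

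**Figure D2:**
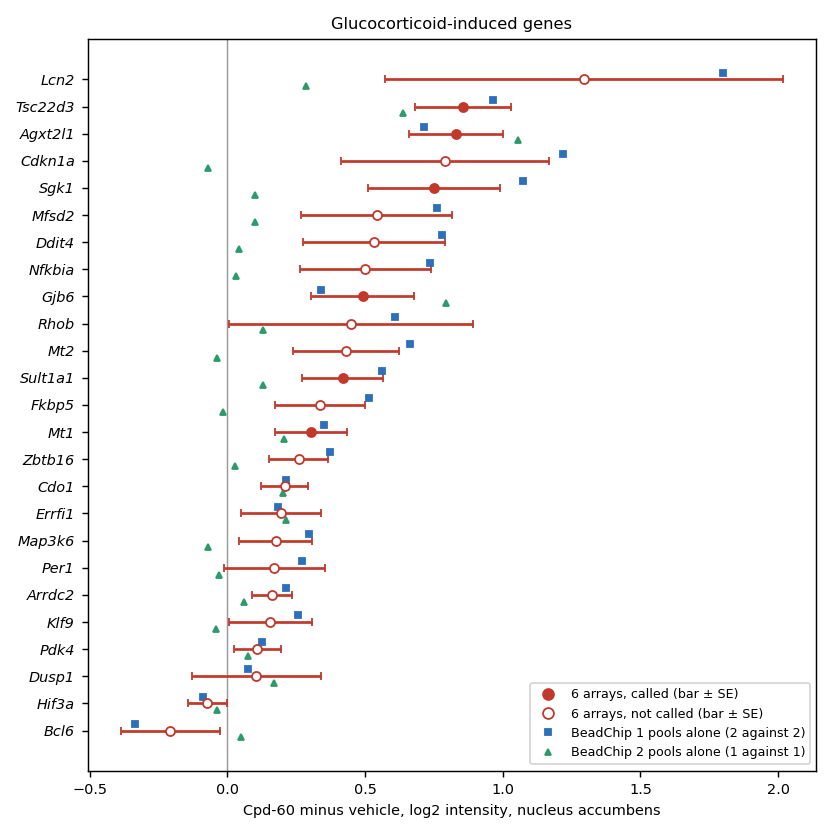
Change of each of 25 glucocorticoid-induced genes in the nucleus accumbens (horizontal axis, Cpd-60 minus vehicle in log2 intensity), with filled red circles for called genes, open circles for the rest and bars of 1 SE; blue squares are the pools of BeadChip 1 and green triangles those of BeadChip 2. 23 of 25 circles lie right of 0, and most green triangles lie near 0, apart from Agxt2l1 (1.06), Gjb6 (0.79) and Tsc22d3 (0.64).

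Other genes with the largest rises came from several kinds of cell and function. Cebpb, a transcription factor of the acute phase response, read 7.37, 7.40 and 7.50 under vehicle and 7.80, 8.35 and 7.88 under Cpd-60, a change of 0.58 (SE 0.15). Lgals3bp, a secreted glycoprotein, rose by 0.59 (SE 0.18) from 7.38 to 7.69 under vehicle to 8.02 to 8.20 under Cpd-60. Both were called whichever pool was left out, and both were higher on each BeadChip. Ecel1, a membrane peptidase of neurons, rose by 0.60 (SE 0.20), and Ptgds, the prostaglandin D2 synthase of the meninges, choroid plexus and oligodendrocytes, also by 0.60 (SE 0.24). Ecel1 lost its call without vehicle replicate 3 (0.47) or Cpd-60 replicate 2 (0.54), and Ptgds kept it only without vehicle replicate 1, at 0.47 to 0.67 over all 6 fits. The SD of Ptgds was 0.22 under vehicle and 0.08 under Cpd-60, and its SE takes in the SAHA arrays too. Cdkn1a, the cell cycle inhibitor p21 and a well known target of HDAC inhibitors, had 3 probes with changes of 0.66 to 0.79, of which 2 were called. The called probe ILMN_2846775 (0.66) kept its call in 2 of 6 fits with 1 pool left out (0.34 to 0.94). It differed by 0.95 on BeadChip 1 and by 0.06 on BeadChip 2. The probe with the highest signal read 8.33, 9.27 and 7.39 under Cpd-60 against 7.46 to 7.62 under vehicle, and with replicate 3 below the vehicle range it was not called (0.79, SE 0.38).

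The largest falls were on probes for poorly described transcripts and for hemoglobin. B230387C07Rik changed by -0.95 (SE 0.37), LOC386360 by -0.72 (SE 0.27), C130080K17Rik by -0.70 (SE 0.18), C330006P03Rik by -0.67 (SE 0.19) and A330057G13Rik by -0.62 (SE 0.26), each with all Cpd-60 pools below all vehicle pools. C130080K17Rik read 8.48, 8.40 and 8.44 under vehicle and 8.06, 7.44 and 7.72 under Cpd-60, and differed by -0.69 and -0.72 on the 2 BeadChips. It and C330006P03Rik were called in all 6 fits with 1 pool left out, LOC386360 and A330057G13Rik in 2 of them (-0.88 to -0.60 and -0.73 to -0.43) and B230387C07Rik in none. Without 1 pool the change of B230387C07Rik was -0.98 to -0.90. Its SD was 0.09 among vehicle pools and 0.08 among Cpd-60 pools, and its SE of 0.37 also takes in the spread of the SAHA arrays. Its lost calls therefore do not show that the vehicle or Cpd-60 pools disagreed.

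Among genes of known function, Map2k2, the MAP kinase kinase MEK2, read 9.78, 9.67 and 9.55 under vehicle and 8.91, 9.32 and 8.92 under Cpd-60. The groups did not overlap, the change was -0.62 (SE 0.13), and it was called with any 1 pool left out. The second probe of Map2k2 changed by 0.07, but it was dim, at 6.81 on average under vehicle against 9.67 on the first. Changes of dim probes are compressed here, so whether the probes of this gene disagree cannot be told. Ankrd12, an ankyrin repeat cofactor, fell on both of its probes, by 0.61 (SE 0.19) and 0.51. Car12, a carbonic anhydrase, read 9.68 to 9.94 under vehicle and 8.93 to 9.37 under Cpd-60, a change of -0.66 (SE 0.25) that was called in 2 of the 6 fits with 1 pool left out (-0.77 to -0.55).

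The globin transcripts were lower after Cpd-60. Hbb-b1, which encodes a beta chain of hemoglobin, was measured by 10 probes, and 8 of them were called lower, with changes of -0.70 to -0.50. The other 2, both dim, were at -0.50 and -0.23. The probe with the smallest p (ILMN_1239117) read 12.01, 12.06 and 11.77 under vehicle and 11.41, 11.23 and 11.14 under Cpd-60, a change of -0.69 (SE 0.13) found alike on both BeadChips (-0.71 and -0.64). These probes may share sequence with related globin genes, so they are not separate measurements. Hba-a1 changed by -0.58 (SE 0.24) and was called, though not without vehicle replicate 1, vehicle replicate 2 or Cpd-60 replicate 3 (-0.78 to -0.35 over 6 fits). Alas2, the erythroid enzyme of heme synthesis, read 6.93 and 6.86 on average in the 2 groups and changed by -0.07. Summed over the 3 blood genes tested of 7 listed, normalized intensity was 7988 to 11352 under vehicle and 5081 to 8040 under Cpd-60. The part of blood left in the tissue was not measured in another way, and its share in other changes was not tested.

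Hdac2, a target of the drug, was not called at the RNA level. It read 9.53, 9.53 and 9.94 under vehicle and 9.46, 9.02 and 10.13 under Cpd-60, a change of -0.13 (SE 0.36), with replicate 3 highest in both groups. Its second probe changed by -0.00. Hdac3, the third deacetylase of corepressor complexes, read 9.13 to 9.24 and 9.10 to 9.22 and changed by -0.03 (SE 0.10). Hdac1 was not analysed here. Of 20 tested genes of the HDAC1/2 corepressor complexes 0 were called on the probe with the highest signal, with a median of -0.01 and extremes of 0.31 for Chd3 (SE 0.20), a NuRD helicase, and -0.22 for Sin3a (SE 0.16), the scaffold of the Sin3 complex. Another probe of Rbbp4, a histone-binding subunit, was called higher (0.29, SE 0.11). None of 7 class II and IV HDAC genes was called, where 0.741% of all probes were called higher and 0.935% lower. Hdac11 had the largest change of these, 0.37 (SE 0.17), and was called with the BeadChip as a block.

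Genes known to answer to HDAC inhibitors had changes on both sides of 0. None of 9 tested was called on the probe with the highest signal, where 0.741% of all probes were called higher and 0.935% lower. Their median change was 0.04. Cdkn1a was at the upper end, and its other 2 probes were called higher as given above. Bdnf, the neurotrophin often studied under HDAC inhibition, was close to background. It read 7.04, 6.97 and 6.65 under vehicle and 6.62, 6.76 and 6.69 under Cpd-60, and was detected at a detection p of at most 0.01 on 2 of 3 arrays in each group. Its change was -0.20 (SE 0.10). Of 6 neurotrophin genes 0 were called, and Vgf, a secreted neuropeptide precursor, had the largest positive change, 0.24 (SE 0.15).

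Of 23 tested genes that define the medium spiny neurons 1 was called lower (0.935% of all probes) and none higher (0.741%), with a median change of -0.06. Drd1a read 10.81, 11.02 and 11.01 under vehicle and 10.85, 10.81 and 10.80 under Cpd-60 (-0.13, SE 0.10). Drd2, the receptor of the indirect pathway, changed by 0.15 (SE 0.22), with replicate 3 at 9.40 under vehicle and 8.96 under Cpd-60 and replicate 1 at 8.76 and 9.61. The opioid precursor Penk1 changed by 0.34 (SE 0.41), Tac1, the substance P precursor, by 0.05 (SE 0.21), and Pdyn, the dynorphin precursor, by -0.30 (SE 0.17). Penk1 read 10.35 and 10.39 in replicate 3 of the 2 groups and 8.89 to 9.68 in the other pools, so the high values lay on BeadChip 2 in both groups. Isl1, a homeobox factor of striatonigral and cholinergic neurons, was the called member. It read 9.34, 9.37 and 9.20 under vehicle and 8.91, 9.17 and 8.97 under Cpd-60 (-0.29, SE 0.09), and was not called without vehicle replicate 2 or Cpd-60 replicate 1 (-0.36 to -0.23 over 6 fits). Rgs9, a striatal regulator of G protein signalling, changed by -0.25 (SE 0.28) on its brightest probe, but its second probe was called lower without overlap of the groups (-0.54, SE 0.11). The median over the list was 0.07 on BeadChip 1 and -0.35 on BeadChip 2.

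On the probe with the highest signal of each gene, receptor and synthesis genes of transmitters had no calls. Over all probes 0.741% were called higher and 0.935% lower. Of 15 dopamine and opioid signalling genes 0 were called (median -0.02), with Penk1 highest and Gnal, the striatal olfactory-type G protein, lowest at -0.39 (SE 0.30). None of 14 genes of GABA synthesis, transport and reception was called, with a median of 0.14 and 11 of 14 changes positive, against 48.4% of all probes. For 4 of the 14 all Cpd-60 pools lay above all vehicle pools, against 4.4% of all probes. Glutamate receptor and scaffold genes had 0 calls of 19 and a median of 0.01, between 0.26 for Grik5 (SE 0.14) and -0.26 for Grm7 (SE 0.27), though the other probe of Grik5 was called higher (0.46, SE 0.18). The 13 interneuron genes had 0 calls, with Pvalb at 0.40 (SE 0.26) and Cck at -0.45 (SE 0.29).

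Immediate early genes, which neurons transcribe within minutes of activity, had 2 of 17 tested members called lower, where 0.935% of all probes were, and none called higher. Dusp6, the phosphatase of ERK, read 9.41, 9.34 and 9.07 under vehicle and 8.63, 8.91 and 8.93 under Cpd-60. The groups did not overlap, the change was -0.45 (SE 0.13), and it was called with any 1 pool left out, but the other probes of Dusp6 changed by -0.08 and -0.04. Those probes were dim, at 6.72 and 6.88 on average under vehicle. Egr3 read 10.77, 10.78 and 10.95 and then 10.62, 10.42 and 10.58 (-0.30, SE 0.12), and kept its call in 1 of 6 fits with 1 pool left out (-0.34 to -0.23). Its second probe, dim at 6.63 on average under vehicle, changed by 0.03. Fos and Arc, the usual markers of neuronal activity, changed by -0.01 (SE 0.20) and 0.01 (SE 0.15), and the median of the list was -0.05. With the BeadChip as a block 4 of 17 were called lower, against 1.35% of all probes, Egr1 (-0.65) and Fosl2 (-0.37) joining the first 2. Egr1, a zinc finger factor of high signal, read 11.43, 11.26 and 11.73 under vehicle and 10.48, 10.70 and 11.27 under Cpd-60, with an overlap between the groups. Egr1 and Fosl2 were singled out after their values were seen.

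Of 12 circadian clock genes 1 was called higher, where 0.741% of all probes were. It was Cry2, a repressor of the clock, which read 8.08, 8.21 and 8.50 under vehicle and 8.77, 8.67 and 8.34 under Cpd-60 (0.33, SE 0.13). Its replicate 3 ran the other way from replicates 1 and 2, and the second probe of the gene, dim at 6.59 on average under vehicle, changed by 0.01. The call was kept without vehicle replicate 3 or Cpd-60 replicate 3 (0.24 to 0.46 over 6 fits). Per2 had the lowest change of the list, -0.29 (SE 0.14), with all Cpd-60 pools (8.83 to 8.98) below all vehicle pools (9.02 to 9.35), and was not called.

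A few astrocyte markers were called. Gfap, the intermediate filament of astrocytes that increases when they become reactive, read 7.86, 7.44 and 7.56 under vehicle and 8.02, 8.60 and 8.55 under Cpd-60, a change of 0.76 (SE 0.31) or 1.70-fold. The groups did not overlap, but the gap was narrow, and the call was lost without vehicle replicates 2 (0.68) or 3 (0.73) or Cpd-60 replicates 2 (0.66) or 3 (0.68). The second probe of Gfap, dim at 6.79 on average under vehicle, changed by 0.11 and was not called. Of 12 homeostatic astrocyte genes 2 were called higher, where 0.741% of all probes were: Gjb6 as given above and Gja1, connexin 43. Gja1 rose from 11.20, 11.14 and 11.09 to 11.27, 11.37 and 11.67 (0.30, SE 0.11) and was called in 3 of 6 fits with 1 pool left out (0.18 to 0.38). The medians were 0.13 over 10 reactive and 0.09 over 12 homeostatic astrocyte genes. Lcn2, an acute phase protein of reactive astrocytes, was not detected on any vehicle array at a detection p of at most 0.01 (6.50 to 6.54). It read 6.68, 9.93 and 6.82 under Cpd-60, so its change of 1.30 (SE 0.72), which was not called, came mainly from replicate 2. The summed intensity of the homeostatic list was 16190 to 17367 under vehicle and 16408 to 18796 under Cpd-60.

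Markers of other cells that a dissection could hold had few calls. Of 13 microglial genes 1 was called lower, where 0.935% of all probes were. This was Cx3cr1, the fractalkine receptor, at 8.80, 8.80 and 8.85 under vehicle and 8.36, 8.06 and 8.66 under Cpd-60 (-0.45, SE 0.14). The list's median was 0.03 and C1qc was at 0.17 (SE 0.15). Of 12 endothelial genes 1 was called lower, against the same share of 0.935%. Slco1c1, the thyroxine transporter of brain vessels (-0.32, SE 0.11), was the called gene and lost its call without vehicle replicate 2 or Cpd-60 replicate 2 (-0.41 to -0.20 over 6 fits). None of 18 oligodendrocyte genes was called, with a median of 0.07, 0.33 for Cnp (SE 0.17) and -0.33 for Sox10 (SE 0.21), while another of the 5 probes of Mobp, a myelin protein, was called higher (0.54, SE 0.19). Their summed intensity was 20895 to 26968 under vehicle and 20887 to 31466 under Cpd-60, and the list's median was -0.13 on BeadChip 1 and 0.50 on BeadChip 2.

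Ttr, the transthyretin of the choroid plexus, read 7.24 to 7.87 under vehicle and 8.16, 7.64 and 10.14 under Cpd-60, so that replicate 3 stood far above the rest. None of 10 choroid plexus and ependymal genes was called, and their summed intensity was 1574 to 1775 under vehicle and 1584 to 3489 under Cpd-60. Of 9 septal and hypothalamic genes 2 were called higher, where 0.741% of all probes were. These were Ecel1 and Trh, the thyrotropin-releasing hormone precursor (0.27, SE 0.09), which kept its call in 3 of 6 fits with 1 pool left out (0.21 to 0.30). Of 9 cortical glutamatergic genes 0 were called, with Slc17a7 at -0.44 (SE 0.26) and Cux2 at 0.22 (SE 0.12). Beside the probe of Mef2c given below, the second probe of Lmo4, a LIM domain cofactor, was called lower (-0.42, SE 0.11), with the first at -0.01. How far the edges of the dissection moved with the groups was not tested. The 3 genes that differ between C57BL/6 substrains had changes of -0.20 (Nnt, SE 0.06) to -0.03 (Wdfy1, SE 0.08), and 0 were called. Nnt lay below the vehicle pools in all 3 Cpd-60 pools, where it was detected on 0 of 3 arrays at a detection p of at most 0.01, against 3 of 3 under vehicle. Whether the supplier of the mice differed between the groups was not tested.

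Heat shock and cholesterol synthesis genes, which many drugs induce through cell stress or sterol depletion, had medians of -0.04 and -0.01. They had 0 calls of 15 and of 13, where 0.741% of all probes were called higher and 0.935% lower. Their largest members were Hspe1 at 0.09 (SE 0.43), a mitochondrial chaperonin that read 7.96 and 8.32 in replicate 3 of the groups and 7.00 to 7.13 in the other pools, and Sc4mol at 0.16 (SE 0.16). The lowest were Dnajb1 at -0.10 (SE 0.17) and Sc5d at -0.20 (SE 0.13).

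**Figure D3:**
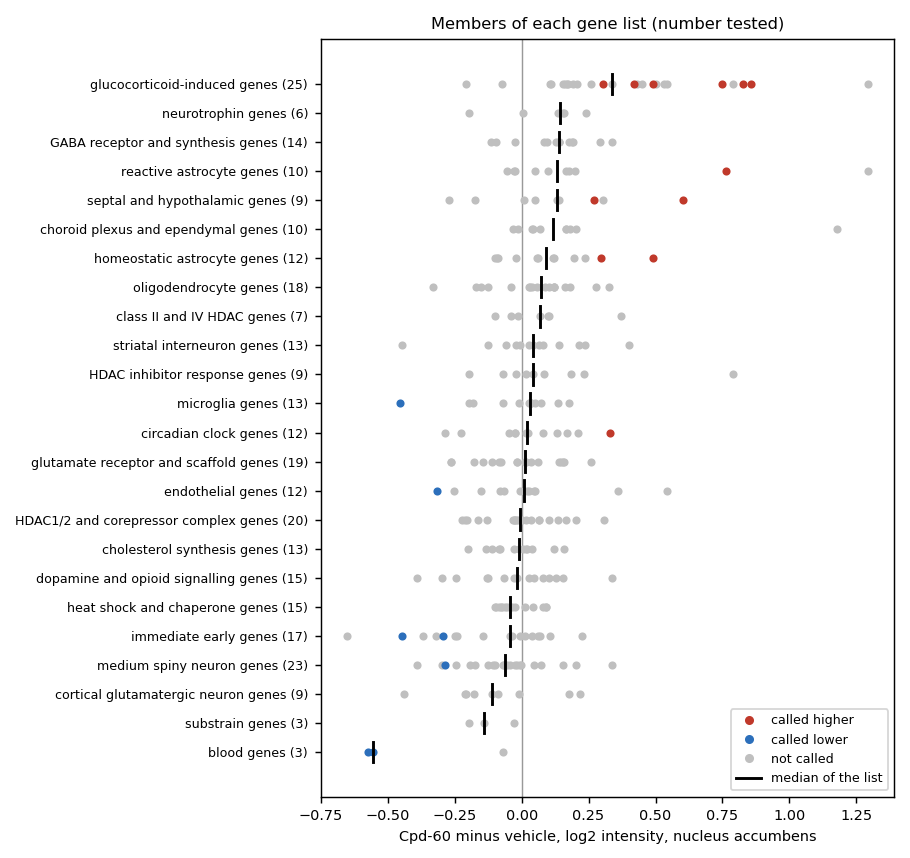
Change in the nucleus accumbens (horizontal axis, Cpd-60 minus vehicle in log2 intensity) of the tested members of 24 gene lists, 1 probe per gene, with red for called higher, blue for called lower, grey for not called and a black bar for each list's median. The glucocorticoid-induced genes have the highest median (0.34) and the blood genes the lowest (-0.56), and the medians of the other lists run from -0.139 to 0.145.

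The other genes that the study names from its arrays had smaller changes in this region. Rock2, a serine/threonine kinase, read 7.41, 7.42 and 7.49 under vehicle and 7.15, 7.10 and 7.28 under Cpd-60, a change of -0.27 (SE 0.07) that was called. It lost the call without vehicle replicate 3 or Cpd-60 replicates 1 or 2 (-0.32 to -0.23 over 6 fits), and its second probe changed by -0.11. Cacng5, an auxiliary subunit of AMPA receptors, changed by 0.41 (SE 0.19) on its brightest probe, which was not called, and by 0.05 to 0.50 on its other probes, of which 1 was called. Qdpr, the reductase that recycles tetrahydrobiopterin, changed by 0.12 (SE 0.21), with differences of -0.15 on BeadChip 1 and 0.66 on BeadChip 2. Usp54, a deubiquitinase family member, changed by 0.18 (SE 0.10) and Igfbp5, a binding protein of insulin-like growth factors, by -0.33 (SE 0.15), and neither was called. Mef2c, a transcription factor of neurons, changed by -0.21 (SE 0.08), below the 1.2-fold limit, with all Cpd-60 pools (9.98 to 10.12) below all vehicle pools (10.13 to 10.38). Another of its 4 probes was called lower (ILMN_1214950, -0.27, SE 0.08).

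The same pools gave PFC and HIP tissue, so the changes can be set side by side. Tsc22d3 changed by 0.86 in the NAc, 0.55 in the PFC (SE 0.13) and 0.43 in the HIP (SE 0.17), and Agxt2l1 by 0.83, 0.36 (SE 0.17) and 0.54 (SE 0.16). Sgk1 changed by 0.75, 0.60 (SE 0.19) and 0.89 (SE 0.19). These genes had positive changes in every region. The median of the 25 glucocorticoid-induced genes was 0.34 in the NAc, 0.33 in the PFC and 0.33 in the HIP, with 23, 22 and 23 positive changes. Rock2, in contrast, was at -0.27 in the NAc, -0.06 in the PFC (SE 0.09) and 0.02 in the HIP (SE 0.07). Ecel1 was at 0.60, -0.13 (SE 0.08) and 0.05 (SE 0.11). Ankrd12 was at -0.61, 0.13 (SE 0.23) and 0.06 (SE 0.08), and C130080K17Rik at -0.70, 0.17 (SE 0.24) and 0.04 (SE 0.14).

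Whether a change was particular to the NAc was tested as the Cpd-60 effect there minus its mean in the PFC and HIP, over the 18610 probes tested in all regions with a random term for the animals pooled. After adjustment limma called 0 probes at 0.05, beside 570 at an unadjusted p under 0.05 (3.06%). The difference was 0.65 for Ecel1 (SE 0.19), -0.71 for Ankrd12 (SE 0.25), -0.81 for C130080K17Rik (SE 0.27) and -0.25 for Rock2 (SE 0.09). The first 3 were named for their size in the NAc, which fixes the sign of the difference in part. It was 0.37 for Tsc22d3 (SE 0.22), 0.38 for Agxt2l1 (SE 0.23) and 0.00 for Sgk1 (SE 0.29). None of the named genes is shown to respond in the NAc alone.

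**Figure D4:**
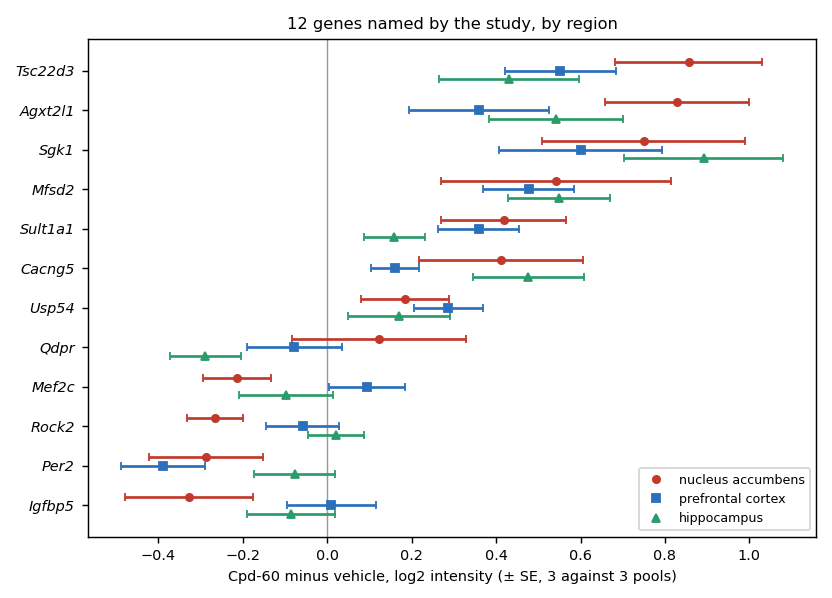
Change under Cpd-60 (horizontal axis, Cpd-60 minus vehicle in log2 intensity, bars of 1 SE) of the 12 genes the study names, in nucleus accumbens (red circles), prefrontal cortex (blue squares) and hippocampus (green triangles). Tsc22d3, Agxt2l1, Sgk1, Mfsd2, Sult1a1, Cacng5 and Usp54 lie right of 0 in all regions, and Rock2 is at -0.27 in nucleus accumbens and near 0 in the others.

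SAHA and CI-994 were given at other doses and in 5 mL/kg, against 7.5 mL/kg for Cpd-60 and vehicle. They are compared with the same vehicle arrays, so their NAc values are set beside those of Cpd-60 without a test between drugs. Replicate 1 of SAHA and of CI-994 lay on BeadChip 1 and replicates 2 and 3 on BeadChip 2, unlike those of vehicle and Cpd-60. No BeadChip block was used here, so differences between drugs and between BeadChips are partly mixed in these values. Agxt2l1 was at 0.83 under Cpd-60, 0.53 under SAHA (SE 0.17) and -0.04 under CI-994 (SE 0.18). Sgk1 was at 0.75, 0.11 (SE 0.24) and -0.05 (SE 0.22), and Tsc22d3 at 0.86, 0.14 (SE 0.17) and -0.00 (SE 0.20). The glucocorticoid-induced genes had medians of 0.34, 0.01 and -0.04, with 23, 13 and 8 of 25 positive. Of the remaining called members, Gjb6 was at 0.49, 0.54 (SE 0.19) and -0.20 (SE 0.23) and Mt1 at 0.30, 0.22 (SE 0.13) and 0.05 (SE 0.14). Sult1a1 was at 0.42, 0.13 (SE 0.15) and -0.25 (SE 0.14). The astrocyte marker Gja1 was at 0.30, 0.35 (SE 0.11) and 0.08 (SE 0.12), and Gfap at 0.76, 0.64 (SE 0.31) and 0.04 (SE 0.30). Hbb-b1 and B230387C07Rik were below vehicle in all drug groups, Hbb-b1 with -0.69, -0.54 (SE 0.13) and -0.77 (SE 0.19) and B230387C07Rik with -0.95, -0.95 (SE 0.37) and -1.11 (SE 0.39). So were LOC386360, with -0.72, -0.63 (SE 0.27) and -0.62 (SE 0.29), and Ankrd12, with -0.61, -0.52 (SE 0.19) and -0.55 (SE 0.22). A330057G13Rik, Car12, C130080K17Rik, C330006P03Rik and Map2k2 were also below vehicle under SAHA and CI-994, by less than under Cpd-60. How much of these falls lies in the vehicle arrays was not tested. A shared set of vehicle arrays moves all these differences together.

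Within BeadChip 1 alone, an analysis chosen after the arrays were seen to divide, 30 probes passed an adjusted p under 0.05 (0.135%) with 2 vehicle and 2 Cpd-60 pools. The SAHA array of BeadChip 1 was in the fit too. If the description of Cpd-60 replicate 2 were right, both Cpd-60 arrays here would hold the same animals, and the drug would have no replicate. The 30 probes included both probes of Tsc22d3, Sgk1, Agxt2l1 and Ddit4 on the higher side and Hbb-b1, B230387C07Rik, C330006P03Rik, Slc4a7 and Egr1 on the lower side. Others were Rasl11b (1.16 on BeadChip 1, 0.06 on BeadChip 2), Camk1g (0.88 and -0.09) and Cirbp, a cold-inducible RNA-binding protein (0.73 and 0.14). On BeadChip 2 the higher-signal probe of Tsc22d3 differed by 0.64, Agxt2l1 by 1.06, the 2 probes of Hbb-b1 by -0.64 and -0.57 and B230387C07Rik by -1.14, each in the direction it had on BeadChip 1. BeadChip 2 holds 1 pool of each group, so the difference there has no replicate.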

How the data were processed

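For 36 arrays the authors deposited linear intensity values of 45281 probes, neither background-subtracted nor normalized, each with a detection p-value. The labels name Trizol extraction with an RNeasy clean-up and the methods an RNeasy lipid tissue kit. Intensities of 27 arrays (all regions of the vehicle, SAHA and Cpd-60 groups) were quantile normalized, floored at 1 and log2 transformed with limma 3.58.1 in R 4.3.3. A probe was tested if every array of 1 or more of the 3 NAc groups had a detection p no higher than 0.2. The fit took the 9 NAc arrays, and the contrast was Cpd-60 minus vehicle. CI-994 values came from all 36 arrays normalized together. Where a gene had several probes, the brightest on average stands for it unless another was named for its change. Probes carry the symbols of the array table, of which 12843 of 15849 tested matched a RefSeq symbol or synonym.

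Named were the 12 genes the study names from its arrays, the 10 largest called rises and 10 largest called falls without overlap between the groups, the called or most extreme members of 24 gene lists, and a set of HDAC, striatal and activity genes. Genes outside this rule are described with their list. Results of some genes are not reported here. The members and lists were chosen with earlier results of these data known. The deviations of same-numbered pools from their group means correlated at 0.338, 0.511 and 0.723, and those of differently numbered pools on BeadChip 1 at 0.398 and 0.497. The pool number, which the labels give, was also used as a block, and its effect cannot be told apart from that of the BeadChip for replicate 3. The code of the fits was run on simulated data with known changes first. The pools are separate samples by their titles, and their number limits the precision of every value.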

Additional observations from a re-analysis of the deposited data

How the results depend on the processing

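None of the alternatives turned the sign of the 34 called probes among the 80 named, while 12 of the 46 that were not called changed sign in at least 1, among them Hdac2, Drd2, Tac1, Qdpr, Fos and Arc. No probe passed an adjusted p under 0.05 in any fit except that of BeadChip 1 alone. That fit, which rests on Cpd-60 replicates 1 and 2, was chosen after seeing the data and gave 30. The probes at an unadjusted p under 0.05 numbered 888 of 22142 in the main fit. With a detection p of at most 0.01 they were 555 of 16033 tested, and with no detection filter 1792 of 45281. Over the 22142 probes they were 1522 with the BeadChip as a block, 479 by the methods' analysis of variance with Tukey's HSD and 2880 on BeadChip 1 alone. Called higher, against 164, were 391 with neqc background correction, 259 with the BeadChip block, 249 with the pool number as a replicate block, 42 by Tukey's HSD and 952 on BeadChip 1 alone. Called lower, against 207, were 491, 300, 304, 77 and 948 in the same order. Leaving out 1 pool gave 506 to 1548 unadjusted, 117 to 559 higher and 133 to 559 lower, with the highest lower count without vehicle replicate 3 and the highest higher count without Cpd-60 replicate 3. With the BeadChip block as well, also added after seeing the data, these were 869 to 1449, 178 to 352 and 215 to 397. The region difference had 365 to 1182 unadjusted probes with 1 pool left out, 823 with the BeadChip block, 727 with the replicate block and 582 with neqc. A detection limit changes the number of probes tested. Why the other counts moved was not tested.

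The BeadChip block lost 0 of the 34 calls and added 10, and the replicate block lost 3 and added 10. Tukey's HSD lost 24, neqc 5, and leaving out 1 pool 8 to 16. Called higher among the 25 glucocorticoid-induced genes were 6 in the main fit, beside 164 of all 22142 probes. With neqc it was 9, beside 391 of all probes, and by Tukey's HSD 2, beside 42. With 1 pool left out it was 2 to 14, beside 117 to 559, so the count over the whole array moved as well. No background was subtracted, so changes of dim probes such as those of Bdnf, Hdac9, Calml4 and Nnt are compressed on this scale. The same holds for the second probes of Map2k2, Egr3, Cry2, Gfap, Rock2 and Hdac2.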
